A study of Mus musculus with 12 samples.

Results

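The alpha and beta tubulins are the paired subunits of microtubules, and 10 of their genes (Tuba1a, Tuba1b, Tuba1c, Tuba4a, Tuba8, Tubb2a, Tubb2b, Tubb4b, Tubb5 and Tubb6) were followed here in mouse liver. They were taken as the probe sets annotated to exactly 1 gene symbol from that list, which gave 14 of the 35145 probe sets on the array and 9 of the 22180 named genes. Tuba4a had no such probe set, because its single probe set is annotated together with the neighbouring kinase gene Stk16, and it was not analysed here. The measured members were therefore 4 alpha and 5 beta tubulin genes. No filter on low values was applied.

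Alpha and beta tubulin bind each other as a dimer, and dimers join end to end into the hollow filaments that carry cargo through the cell and form the spindle at division. Cells hold several genes, or isotypes, for each subunit, whose proteins are mostly similar and differ most at their acidic tails, with some isotypes more divergent. In hepatocytes microtubules carry secretory vesicles, lipoproteins among them, towards the blood. Cells also adjust tubulin mRNA to the amount of free dimer, since a surplus of dimer triggers decay of tubulin mRNA on ribosomes.

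Liver RNA was measured in male C57BL6/J mice aged 8 to 10 weeks, killed 4 days after tail vein injection of an Ad5 adenovirus and after a 6 h fast. In the control group, Ad-GFP, the virus carried green fluorescent protein (6 arrays, GFP 1 to GFP 6), and in the other, Ad-hApoF, it carried human apolipoprotein F, a secreted protein of lipoproteins (6 arrays, hApoF 7 to hApoF 12). Every liver had thus received a virus, and neither uninjected livers nor the viral dose enter this comparison. It addresses the liver response to expressed human ApoF, which cannot be told apart here from differences between the virus preparations or effects of GFP. The labels do not tie each array to an animal, so p-values describe the spread between these arrays, which may be technical.

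Values are log2 RMA values, in which a difference of 1 is a doubling. Array medians lay between 4.93 and 5.03, and correlations between arrays, across probe sets, between 0.982 and 0.993. The lower quartile ran from 3.74 to 3.80 over the hApoF group, was 3.80 in GFP 4, and ran from 3.66 to 3.72 over the remaining GFP samples. The upper quartile went the other way. It ran from 6.668 to 6.726 over the hApoF group, was 6.673 in GFP 4, and ran from 6.734 to 6.814 over the remaining GFP samples. The number of arrays limits the precision. A whole-liver value cannot tell fewer cells of a type from less RNA per cell. Hepatocyte markers such as albumin had a mean level of 11.5 to 11.6 in GFP arrays and of 11.5 to 11.7 in hApoF arrays, and 0 of 9 were called by limma (0 lower and 2 higher at an unadjusted p below 0.05). Markers of other liver cells were in part called higher in hApoF livers, against 2.11% of all genes. They were 2 of 10 macrophage and Kupffer cell genes (Clec4f by 1.26 and Vsig4 by 1.38 on the log2 scale) and 3 of 10 endothelial genes. Also higher were 2 of 10 stellate cell and fibroblast genes and 1 of 8 neutrophil genes, with 0 lower in these lists. The macrophage list as a whole had a median log2 change of 0.16. In it, 2 of 10 genes lay below 0 (Adgre1 and Lyz2, -0.13 each). The Vsig4 call (limma adjusted p = 0.038) was lost in 7 of 12 omissions of 1 array (GFP 1, 2 or 3, or hApoF 7, 9, 11 or 12; adjusted p up to 0.088, without GFP 2) and with trend and robust eBayes (0.090). The mean level of the macrophage list ran from 6.57 to 7.76 in GFP arrays and from 7.09 to 7.92 in hApoF arrays, that of the endothelial list from 8.05 to 8.52 and from 8.36 to 8.72, that of the stellate list from 6.95 to 7.30 and from 7.14 to 7.48, and that of the neutrophil list, below the array medians, from 4.15 to 4.45 and from 4.31 to 4.69. The bile duct (6), T and NK cell (9) and B cell (5) lists had 0 limma calls, with 1, 1 and 0 genes lower and 2, 1 and 1 higher at an unadjusted p below 0.05. The part of these cells in the tubulin differences was not tested.

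Tubulin mRNAs were lower in hApoF livers for 4 of the 9 measured genes, the beta tubulins Tubb6, Tubb5 and Tubb4b and the alpha tubulin Tuba1c, and for these 4 no hApoF array reached any GFP array. Of all genes, 4.80% were called lower, 2.11% were called higher 3.49% were lower and 1.49% higher without overlap between the groups (limma with Benjamini-Hochberg adjustment over 22180 genes, adjusted p below 0.05). By the brightest probe set, none of the 9 was called higher by limma, and none was higher at an unadjusted limma p below 0.05. The point estimate was below 0 in 8 of the 9, against 42.3% of all genes, and the median log2 change was -0.43, against 0.03 over all genes. The other 5 genes, Tuba1a, Tuba1b, Tuba8, Tubb2a and Tubb2b, did not pass the test.

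**Figure D1:**
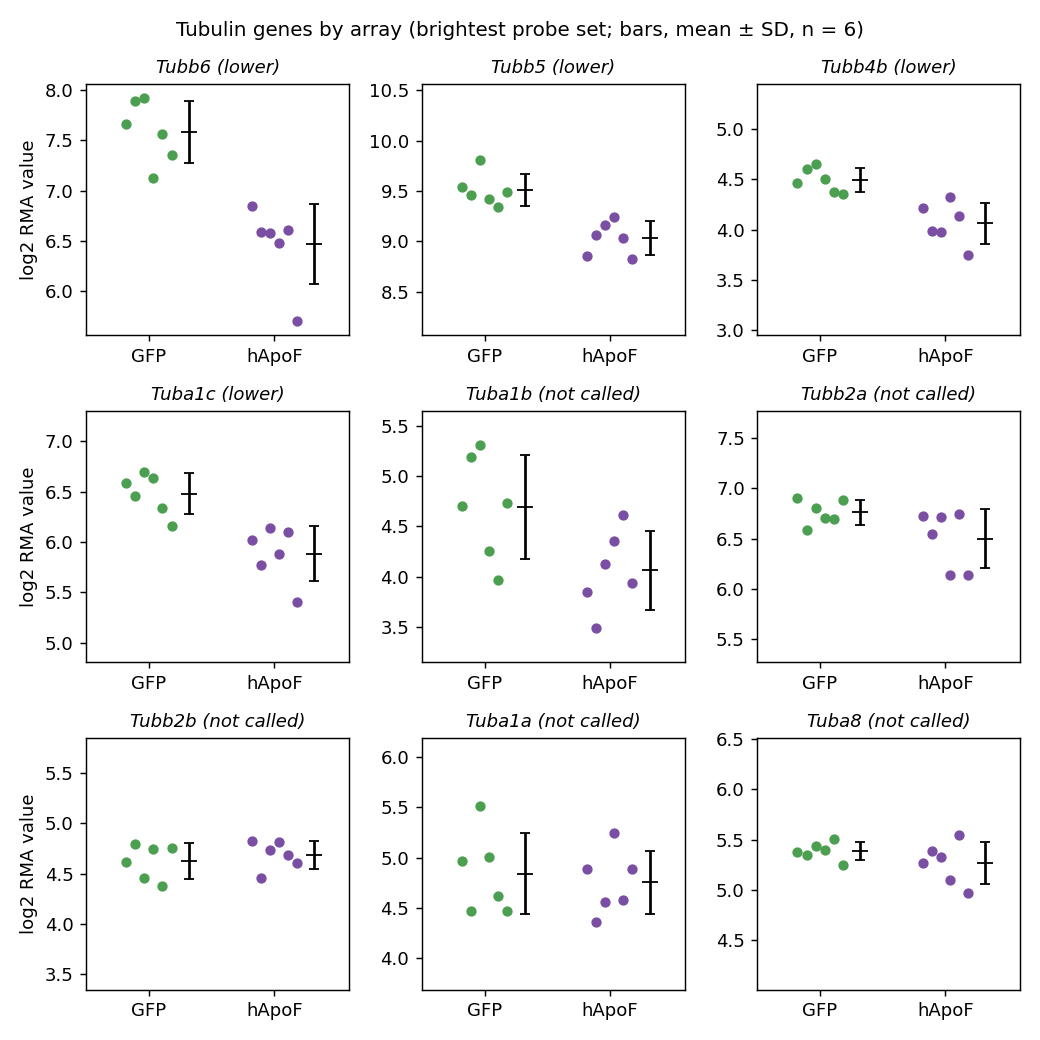
Log2 RMA value (vertical axis, 2.5 log2 units in every panel) of the brightest probe set of each of the 9 measured tubulin genes in the 6 GFP (green) and 6 hApoF (purple) arrays, with mean and SD as black bars. The points of the groups are separate for Tubb6, Tubb5, Tubb4b and Tuba1c and overlap for the other genes, and hApoF 12 is the lowest point of each of those 4.

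Tubb6, a divergent beta tubulin isotype found at low levels in many tissues, had the largest difference. Its level was 7.13 at the lowest, 7.61 in the median and 7.93 at the highest in GFP livers, and 5.70, 6.59 and 6.85 in hApoF livers. The groups were separated by 0.28 between GFP 4, the lowest GFP array, and hApoF 7, the highest hApoF array. The mean fell from 7.59 ± 0.31 (SD, n = 6) to 6.47 ± 0.39 (n = 6), a fall of 1.12 on the log2 scale or 2.17-fold (SE 0.17, limma adjusted p = 9.0e-04). The exact permutation p was 0.0022, the smallest that 924 assignments of the arrays can give. Array hApoF 12 stood apart below the other hApoF arrays, and without it Tubb6 fell by 0.96.

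Tubb5, the main beta tubulin of dividing cells, was measured by 2 probe sets, and both were lower. The brighter ranged from 9.35 to 9.81 in GFP livers, with a median of 9.47, and from 8.82 to 9.24 in hApoF livers, with a median of 9.05. Its mean was 9.51 ± 0.16 (SD, n = 6) and 9.03 ± 0.17 (n = 6), a fall of 0.48 or 1.40-fold (SE 0.09; adjusted p = 0.0051 by limma and p = 0.0022 by the exact permutation test). The dimmer Tubb5 probe set had 7.31 ± 0.16 and 6.90 ± 0.17 (n = 6 each), a fall of 0.41 (adjusted p = 0.017 in limma over all 23521 single-gene probe sets, of which 4.67% were called lower). Neither probe set overlapped between the groups.

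Tubb4b, a widely expressed beta tubulin also built into cilia, fell by 0.43 or 1.35-fold (SE 0.09, limma adjusted p = 0.012). Its levels were 4.36, 4.49 and 4.66 at the lowest, median and highest in GFP livers and 3.75, 4.06 and 4.32 in hApoF livers, all below the array medians, and only 0.037 separated the groups. The 2 remaining beta genes are neighbours on chromosome 13. Tubb2a ranged from 6.59 to 6.91 in GFP livers and from 6.13 to 6.75 in hApoF livers, where hApoF 10 and hApoF 12 were lowest, hApoF 8 (6.55) lay just below the GFP range and the other arrays lay inside it. Its log2 difference was -0.26 (95% interval -0.51 to -0.01, limma adjusted p = 0.219). Tubb2b, an isotype best known from developing neurons, was at 4.63 ± 0.18 and 4.69 ± 0.14 (SD, n = 6 each), a difference of 0.06 (95% interval -0.13 to 0.26, limma adjusted p = 0.750). Its dimmer probe set pointed the other way, at -0.09, and was not called either.

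Among the alpha tubulins, Tuba1c, an isotype of many dividing and non-dividing tissues, was lower. Its level ranged from 6.16 to 6.70 in GFP livers, with a median of 6.52, and from 5.41 to 6.14 in hApoF livers, with a median of 5.95. The mean of 6.48 ± 0.20 (SD, n = 6) stood against 5.89 ± 0.27 (n = 6), a fall of 0.59 or 1.51-fold (SE 0.12; adjusted p = 0.0085 by limma and p = 0.0022 by the exact permutation test), with a gap of only 0.026 between the groups. The dimmer Tuba1c probe set had a difference of like size, -0.54, with overlapping groups, and was not called (limma adjusted p = 0.099).

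Tuba1b, the isotype most used by dividing cells, had a difference of like size to that of Tuba1c but spread far more between arrays. Its levels were 3.96, 4.71 and 5.30 at the lowest, median and highest in GFP livers and 3.49, 4.03 and 4.61 in hApoF livers, so that the groups overlapped. The log2 difference of -0.63 (SE 0.22, 95% interval -1.10 to -0.15) did not pass (limma adjusted p = 0.108, unadjusted exact permutation p = 0.041), and it passed without GFP 5, the lowest GFP array (adjusted p = 0.039). Both group means of Tuba1b (4.69 and 4.06) lay below the array medians, as did those of Tuba1a and Tubb2b. A further probe set of Tuba1b, annotated with several genes, was left out by the rule. The neuronal isotype gene Tuba1a was at 4.84 ± 0.40 and 4.75 ± 0.32 (SD, n = 6 each), a difference of -0.09 (95% interval -0.47 to 0.29, limma adjusted p = 0.826), and its dimmer probe set had -0.19. Tuba8, an isotype of muscle and testis, was at 5.38 ± 0.09 and 5.27 ± 0.20 (n = 6 each), a difference of -0.12 (95% interval -0.31 to 0.08, limma adjusted p = 0.504). The probe sets of Tuba8 disagreed in direction, with 0.19 for the dimmer one, and neither was called. Tuba1a, Tuba1b and Tuba1c lie next to each other on chromosome 15 and have closely similar coding sequences, as have Tubb2a and Tubb2b, so hybridisation of one transcript to probes of another leaves the split between them uncertain.

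**Figure D2:**
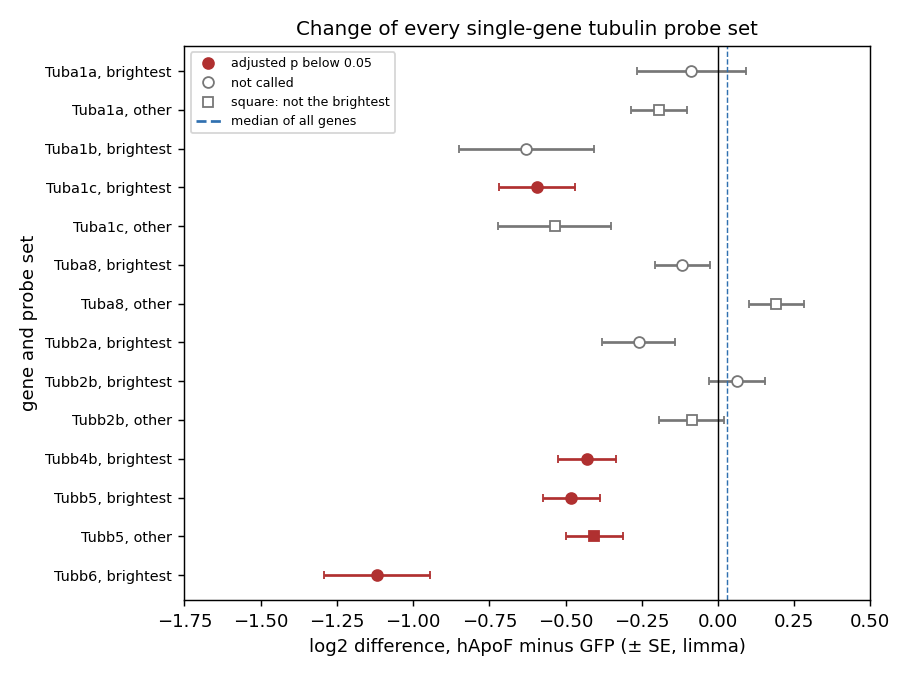
Log2 difference, hApoF minus GFP, with limma's SE (horizontal axis) for the 14 single-gene tubulin probe sets (vertical axis). Red filled points were called lower, circles are the brightest probe set of a gene and squares the others. The 5 called probe sets, among them both of Tubb5, lie between -1.12 and -0.41, and both probe sets of Tuba1c lie at -0.59 and -0.54, with 1 called.

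Whether neighbouring or similar isotypes differed in their change was tested on the difference between their levels within each array, for 4 pairs. Tuba1a minus Tuba1b changed by 0.54 (exact permutation p = 0.089, adjusted over 4 pairs 0.177), and Tubb2a minus Tubb2b by -0.32 (exact p = 0.067, adjusted 0.177). Tuba1b minus Tuba1c changed by -0.03 (exact p = 0.883, adjusted 0.883) and Tubb4b minus Tubb5 by 0.05 (exact p = 0.597, adjusted 0.797). No pair passed. Of the 4 pairs, only Tuba1b with Tuba1c set an uncalled gene against a called one.

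Some extreme values of the called tubulins fell in the same arrays. The lowest hApoF array was hApoF 12 and the highest GFP array GFP 3 for each of Tubb6, Tubb5, Tubb4b and Tuba1c. Uncalled members shared this in part. GFP 3 was the highest GFP array for Tuba1a and Tuba1b, and hApoF 12 the lowest hApoF array for Tuba8. Neither held for Tubb2b, and for Tubb2a hApoF 12 lay just above the lowest, hApoF 10. In a list of 23 measured cell division genes, hApoF 12 was also lowest (mean level 5.38, the other hApoF arrays 5.76 to 6.28). GFP 3 was highest there (7.58, the other GFP arrays 6.95 to 7.46), and it also had the highest upper quartile of all arrays (6.81). At the other end the arrays differed. The lowest GFP array was GFP 4 for this list and for Tubb6. It was GFP 5 for Tubb5 and GFP 6 for Tubb4b and Tuba1c. All 23 cell division genes were lower, against 4.80% of all genes, with a median of -1.66. Among them were Plk1, a mitotic kinase (log2 change -2.00), Cdc20, which starts anaphase (-1.68), Aurka, a spindle pole kinase (-1.66), and Cenpe, a kinetochore motor (-1.66). The part of dividing cells in the tubulin differences was not tested.

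The start regions of the called members Tubb5, Tubb4b and Tuba1c are shown, and beside them that of Tubb2a, which was not called. Each is the 250 bases before the annotated start of the gene, from RefSeq on GRCm38.p6, read 5′ to 3′ on the strand of the gene. Capitals mark CCAAT, the box bound by the factor NF-Y and common in promoters of cell cycle genes, or its reverse complement ATTGG, and TTTGAA, a cell cycle homology element. The table of start regions held 8 of the 10 members, and Tubb2b and Tubb6 had no entry. The region of Tuba1a, which was not called either, holds 1 CCAAT and is not printed. Those of Tuba1b (log2 difference -0.63, not called), Tuba8 (not called) and Tuba4a (not measured) hold 0 CCAAT and are not printed either.
Tubb5, chr17:35838302-35838551, minus strand: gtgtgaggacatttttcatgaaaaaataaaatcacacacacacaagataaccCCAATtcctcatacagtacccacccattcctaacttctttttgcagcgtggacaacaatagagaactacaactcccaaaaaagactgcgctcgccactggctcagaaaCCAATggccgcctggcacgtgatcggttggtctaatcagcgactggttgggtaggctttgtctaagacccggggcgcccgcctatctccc
Tubb4b, chr2:25224703-25224952, minus strand: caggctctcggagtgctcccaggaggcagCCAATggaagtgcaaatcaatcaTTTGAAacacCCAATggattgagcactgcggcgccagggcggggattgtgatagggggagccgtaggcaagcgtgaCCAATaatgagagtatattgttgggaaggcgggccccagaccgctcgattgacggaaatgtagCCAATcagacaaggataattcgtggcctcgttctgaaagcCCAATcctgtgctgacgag
Tuba1c, chr15:99029641-99029890, plus strand: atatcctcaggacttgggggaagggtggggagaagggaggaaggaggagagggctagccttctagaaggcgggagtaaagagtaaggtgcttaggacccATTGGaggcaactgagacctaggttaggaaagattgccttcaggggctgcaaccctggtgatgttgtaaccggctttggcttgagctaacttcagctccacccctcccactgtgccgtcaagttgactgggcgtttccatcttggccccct
Tubb2a, chr13:34078009-34078258, minus strand: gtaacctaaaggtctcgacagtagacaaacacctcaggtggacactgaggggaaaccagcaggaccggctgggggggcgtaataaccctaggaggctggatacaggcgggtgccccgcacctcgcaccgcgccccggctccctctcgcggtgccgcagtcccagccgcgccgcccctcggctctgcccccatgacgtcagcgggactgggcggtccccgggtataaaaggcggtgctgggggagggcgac

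A set of 4 letter strings was searched on both strands of these windows. CCAAT was found in 4 of the 8 tubulin windows, against 33.8% of 32851 windows of all genes. It occurred 5 times in Tubb4b, 2 times in Tubb5 and once each in Tuba1c and Tuba1a, of which Tuba1a was not called. TTTGAA was in 1 tubulin window, that of Tubb4b, 198 bases before the start, against 16% of all windows. The GC box GGGCGG was in 5 of 8 (Tuba1a, Tuba1b, Tuba4a, Tubb2a and Tubb4b), against 32.7% of all windows. The string TATAAA was found in 1 window, that of Tubb2a, 29 bases before the start, against 12.4%. Copies of different strings did not overlap in the tubulin windows. A match is a description of the letters and not a bound site.

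The rarer tubulins, which are the gamma, delta and epsilon forms and further alpha and beta genes, had 1 call. Of 8 measured genes of this list 1 was lower and 0 higher, 12.5% against 4.80% of all genes, with a median of -0.15. Its alpha and beta genes differed by -0.10 (Tubb1), 0.08 (Tubb3), 0.27 (Tubb4a) and 0.19 (Tubal3), and none was called. The gene called was Tubd1, delta tubulin of centrioles, with levels of 6.62 and 6.35 and a fall of 0.27 (SE 0.08, limma adjusted p = 0.0495). This call was lost in 11 of 12 omissions of 1 array, which moved the adjusted p up to 0.104, without hApoF 9, and held without hApoF 8 alone (0.026). It was also lost when values were quantile normalized again (0.142).

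Genes that fold tubulin, or act in the decay of its mRNA, mostly did not pass. Of 22 measured 2 were lower and 0 higher, 9.09% against 4.80% of all genes called lower, with a median of -0.04. At an unadjusted limma p below 0.05 the counts were 5 lower and 1 higher. All 22 lay above the median level. With the fit limited to genes above it, 3 of 22 were lower, against 1441 of 12444 of all genes. Vbp1, a prefoldin subunit that hands new tubulin to the chaperonin, fell by 0.37 (SE 0.09, limma adjusted p = 0.020; 0.0501 without GFP 1). Tcp1, a subunit of that chaperonin, fell by 0.25 without overlap between groups (SE 0.06, limma adjusted p = 0.029), and lost its call in 6 of 12 omissions (up to 0.075, without GFP 2) and when probe sets of a gene were averaged (0.194). Ttc5, which recognises nascent tubulin when dimer is in surplus, and its partner Scaper were chosen after their values were seen. Ttc5 differed by 0.03 (limma adjusted p = 0.867) and Scaper by 0.01 (limma adjusted p = 0.958). Enzymes that add or remove tubulin's tail modifications had 0 of 24 called by limma, and 5 lower and 1 higher at an unadjusted limma p below 0.05. The lowest p were those of Agbl5, a deglutamylase (-0.32, limma adjusted p = 0.062), and Ttll12, a ligase-like protein (-0.22, limma adjusted p = 0.081). Agbl5 passed without GFP 4 (0.022), when the list had 2 lower genes.

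Genes of microtubule nucleation were lower in part. Of 19 measured 7 were lower and 0 higher, 36.8% against 4.80% of all genes, with a median of -0.25. With the fit limited to genes above the median level, 8 of 19 were lower, against 1441 of 12444 of all genes. Tpx2, which promotes microtubule growth around chromosomes, fell by 1.95 (SE 0.18, limma adjusted p = 1.3e-05). Tubgcp2, a core subunit of the gamma tubulin ring, fell by 0.73 (SE 0.10, limma adjusted p = 4.3e-04). Haus8 and Haus4, subunits of the augmin complex that starts branches within the spindle, fell by 0.62 and 0.60. These 4 did not overlap between the groups.

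In the list of binding and severing proteins, 6 of 34 were lower and 0 higher, 17.6% against 4.80% of all genes, while the list median was 0.03. Above the median level 6 of 28 were lower, against 1441 of 12444 of all genes. Kif2c, a kinesin that takes microtubules apart at centromeres, fell by 1.69 (SE 0.14, limma adjusted p = 8.3e-06), and Tacc3, a spindle stabiliser, fell by 1.41. Stmn1, stathmin, which holds free tubulin dimers, fell by 0.87 (SE 0.12, limma adjusted p = 2.5e-04), and Kif18a, which limits spindle microtubule length, fell by 1.04. The other genes called were Fignl1, which is best known from DNA repair (-1.09), and Camsap3, which holds minus ends in non-dividing epithelial cells (-0.35, limma adjusted p = 0.037). The groups overlapped for Camsap3, and its call was lost in 8 of 12 omissions of 1 array (GFP 2, 3, 5 or 6, or hApoF 9, 10, 11 or 12; adjusted p up to 0.084, without GFP 3) and when values were quantile normalized again (0.065). Fignl1 kept its call in all 12 omissions.

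Motors and adaptors of microtubule transport had 1 of 28 lower and 0 higher, 3.57% against 4.80% of all genes, with a median of 0.02. Above the median level 1 of 24 was lower, against 1441 of 12444 of all genes. Dynlrb1, a light chain of dynein, fell by 0.39 without overlap (SE 0.10, limma adjusted p = 0.029). It did not pass when GFP 2 (0.069), GFP 3 or hApoF 7 was left out, which left 0 lower genes in the list. Leaving out hApoF 7 also gave 1 higher motor gene. In the actin, keratin and lamin list 4 of 26 were lower and 0 higher, 15.4% against 4.80% of all genes, with a median of -0.04. Among genes above the median level, 4 of 25 of this list and 1441 of 12444 of all genes were lower. Pfn1, profilin, which feeds actin monomers to filaments (-0.34, limma adjusted p = 0.0061), and Cfl1, cofilin, which severs them (-0.35, adjusted p = 0.018), did not overlap between the groups. Lmna and Lmnb1, lamins of the nuclear envelope, each fell by 0.45 (limma adjusted p = 0.021 and 0.028), and both lost their calls when GFP 2, GFP 3 or GFP 6 was omitted, with 2 lower genes then in the list. Lmnb1 also lost its call without hApoF 9 (0.060). Without hApoF 12, 1 gene of this list was higher.

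**Figure D3:**
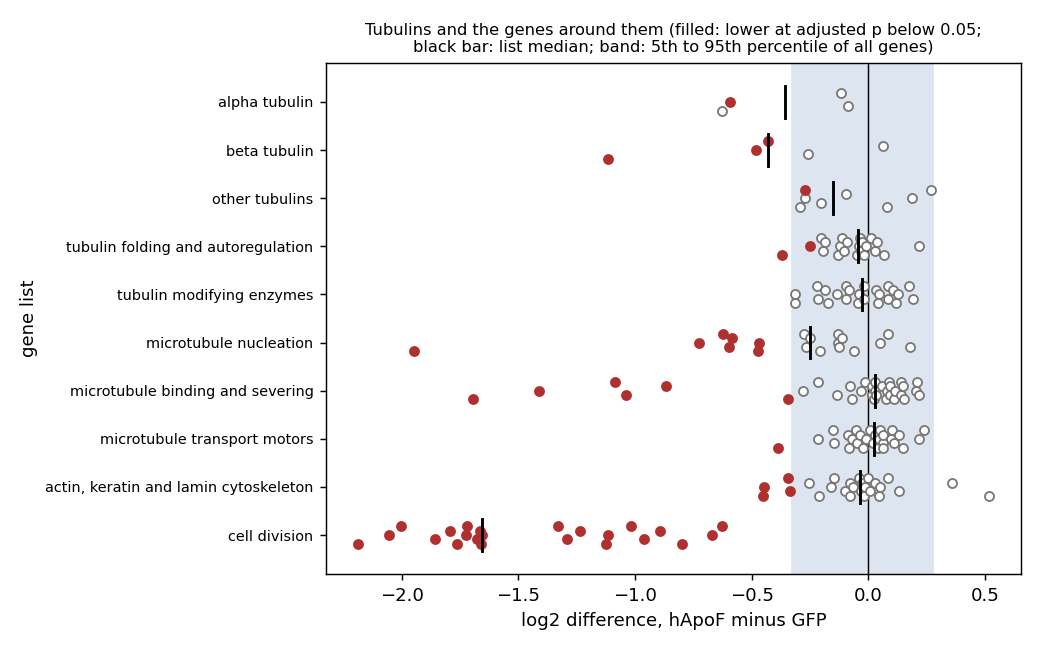
Log2 difference, hApoF minus GFP (horizontal axis), for each measured gene of 10 lists (vertical axis), with genes called lower filled in red, the list median as a black bar and the 5th to 95th percentile of all genes (-0.33 to 0.28) as a band. The called beta tubulins and Tuba1c lie left of the band, between -1.12 and -0.43, and the cell division genes all lie at -0.63 or further left.

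The genes whose values moved most like those of Tubb5 and Tuba1c between arrays of the same group were found by the Pearson correlation of values centred on their group mean over 12 arrays. They were picked as the highest of all genes, so the coefficients are a description. For Tubb5 they were Fth1 (r = 0.95, Spearman's rho 0.87), 1700069P05Rik (0.93, 0.86), Cd8a (0.93, 0.87), Smad7 (0.92, 0.92) and Tap1 (0.91, 0.92). For Tuba1c they were Trim14 (r = 0.92, Spearman's rho 0.87), Fscb (0.90, 0.93), Mageb17-ps (0.90, 0.88), Sec24c (0.90, 0.88) and Mc1r (0.87, 0.87). No tubulin was among these 10 genes, and none of the 10 was called between the groups by limma.

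The 4 calls among the tubulins were kept in each of the 12 fits that left out 1 array and in every other setting in which the gene was tested. The limma adjusted p ran from 8.2e-05 to 0.0032 for Tubb6, from 0.0011 to 0.014 for Tubb5, from 0.0037 to 0.026 for Tuba1c and from 0.0064 to 0.035 for Tubb4b. Tubb4b was not tested where genes below the median level were left out, which kept 5 of the 9 members with 3 called. Of all genes, 1441 of 12444 were called lower in that setting.

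**Figure D4:**
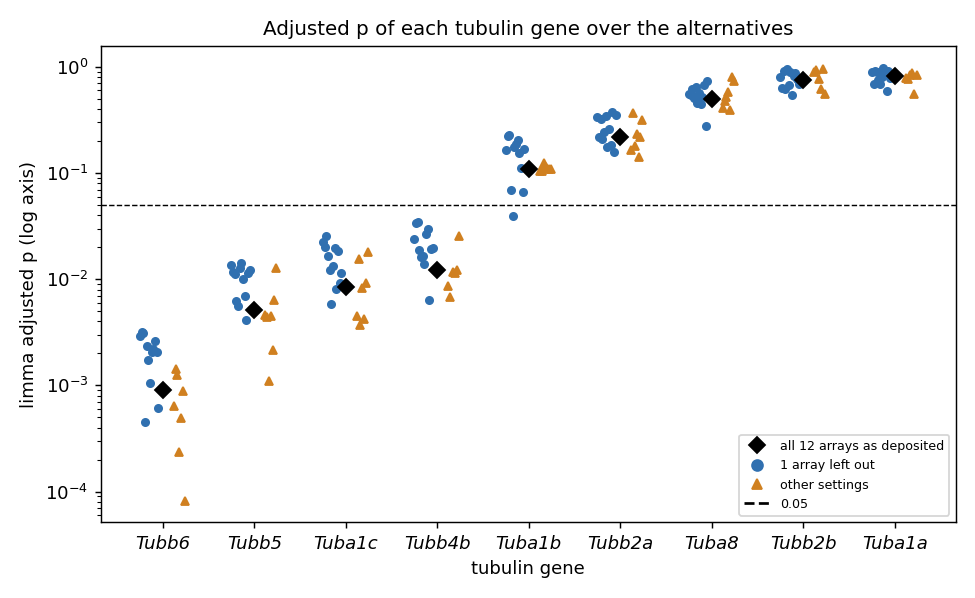
Limma adjusted p (log axis) of each tubulin gene with all 12 arrays as deposited (black diamond), with 1 array left out (blue circles) and under the other settings (orange triangles), with 0.05 as a dashed line. All points of Tubb6, Tubb5, Tuba1c and Tubb4b lie below the line, 1 point of Tuba1b does (0.039, without GFP 5), and none of the other 4 genes' points do.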

How the data were processed

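The authors deposited log2 values per probe set for 12 arrays, 1 per sample. Per the submitters' processing notes they used oligo with RMA, which corrects background, quantile normalizes and summarises probe sets by median polish. Their software versions and annotation release: not given in the sources used here. Quantile normalization makes array distributions alike, so each difference is relative to the other genes of the array. Values were used as deposited.

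Groups came from the sample titles. Gene names came from the platform annotation: 23521 of 35145 had 1 gene symbol, 1814 several and 9810 none, and only the first were used. Where a gene had several, the brightest probe set by its 12-array mean stood for it. hApoF was compared with GFP with R 4.3.3 and limma 3.58.1 (eBayes after lmFit, no covariates, no filter), with Benjamini-Hochberg adjustment over all 22180 genes and a threshold of 0.05. SE and 95% intervals are from this fit. Single values were also tested by a two-sided exact permutation test over all 924 assignments. The fit was tested on simulated data. Lists were described by counts and medians only, with list members not measured under 1 symbol left out. All members are named, from each pathway list up to 4 called genes with the lowest p, or 2 where none was called, and 5 genes most like 1 alpha and 1 beta member. Fignl1, Camsap3, Ttc5, Scaper, Clec4f and Vsig4 fall outside this rule and were chosen after their values were seen. Members, lists and motifs were chosen with earlier results of these data known. Alternatives were other scalings, eBayes settings, array weights, a level filter, averaged probe sets and left-out arrays. Python 3.11.15, pandas 2.3.3 and matplotlib 3.10.9 were used for tables and plots.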

Additional observations from a re-analysis of the deposited data

Results flagged for a closer look

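Among the 14 tubulin probe sets, each examined in the GFP and the hApoF arrays (28 sets of 6 values), 2 held an array far from the rest, in both cases hApoF 12 as the lowest. For Tubb6 it was at 5.70, with the next hApoF array at 6.48, a gap of 0.683 of the group's range. For the dimmer Tubb5 probe set it was at 6.57, with the next at 6.89, a gap of 0.664 of the range. The limit for 6 values is 0.625, which chance passes in about 1 of 20 sets. Both genes were still called lower without hApoF 12 (Tubb6 by limma, adjusted p = 6.2e-04; Tubb5, brighter probe set, 0.012).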

How the results depend on the processing

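No paired analysis was possible because the groups share no replicate number. The count of tubulin genes called lower was 4 to 5 over the omissions of 1 array (5 without GFP 5) and 3 to 4 elsewhere, and no named gene past the threshold changed direction. The 4 pair differences stayed above an adjusted p of 0.05 throughout. Over all genes, 254 to 653 were called higher and 748 to 1335 lower when 1 array was left out, against 469 and 1064. Without GFP 4 and hApoF 12, 703 were higher. Over the omissions of 1 array the lower counts were 0 to 2 for rarer tubulins, 1 to 2 for folding, 0 to 2 for modifying enzymes, 0 to 1 for motors and 2 to 5 for actin, keratin and lamin genes, and the higher counts 0 to 1 for motors and 0 to 1 for the actin list. Rarer tubulins had 0 lower genes when quantile normalized again, 2 with trend and robust eBayes, 2 with array weights and 3 of 4 among genes above the median level. Folding genes had 1 higher when quantile normalized again and 1 lower with averaged probe sets. Modifying enzymes had 1 lower with trend and robust eBayes, 1 with array weights, 2 of 15 above the median level and 2 without GFP 4 and hApoF 12. The actin list had 1 higher with array weights, 1 above the median level and 1 without GFP 4 and hApoF 12. Fewer genes were tested above the median level, where 1441 of 12444 genes were lower and 697 higher. Otherwise the cause was not tested. Tubb4b lies below the median level and was not tested under that filter.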
